A study of Mus musculus with 98 samples.

Results

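The 41 genes described here encode core proteins of the major spliceosome, out of 21812 gene symbols in each count table. They were chosen by name, not by a measured value, though with earlier results of these data known. All 41 were counted well enough to be tested in all 8 tables that were tested. They comprise the SF3a proteins (Sf3a1, Sf3a2, Sf3a3), the 7 SF3b proteins (Sf3b1 to Sf3b6 and Phf5a), the helicase Ddx46, the recognition factors U2af1, U2af2 and Sf1, and the U1- or U2-specific proteins Snrnp70, Snrpa, Snrpc and Snrpa1. The remaining members are the 7 proteins of the Sm ring (Snrpb, Snrpd1, Snrpd2, Snrpd3, Snrpe, Snrpf, Snrpg), the 7 of the LSm ring (Lsm2 to Lsm8), the U5 proteins Prpf8, Snrnp200, Eftud2 and Prpf6, the U4/U6 proteins Prpf3, Prpf4 and Prpf31, and Prpf19 and Cdc5l of the Prp19 complex.

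The spliceosome removes introns from pre-mRNA and is rebuilt on each intron from small nuclear ribonucleoproteins, each a small nuclear RNA with its proteins. U1 and the U2AF and SF1 proteins mark the ends of the intron, U2 with SF3a and SF3b is placed on the branch point, and the U4/U6 and U5 particles join before the complex is remodelled into its active form. Sm proteins form a ring around most of these RNAs, and the LSm ring of Lsm2 to Lsm8 holds the end of U6. Pladienolide B binds a pocket formed by Sf3b1 and Phf5a and blocks splicing, and mouse totipotent blastomere-like cells (TBLC) were originally obtained by holding embryonic stem cells in that compound.

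The study sequenced RNA of mouse TBLC kept in 2MYCP medium and of the same cells moved to SLM medium, and asked how transcripts and their stability differ between these states. Cells sorted after 3 days in SLM were CD140-negative (EPI-T) or CD140-positive (PrE-T), and TBLC held for 3 days in SLM without sorting are called diffTBLC. TBLC_PlaB- cells had 8 h in SLM and were set against TBLC_Ctrl. Whether any of these cultures held pladienolide B is not described here. Actinomycin D, which stops transcription, was given for 0, 1, 2 or 3 h in 4 courses: TBLC with diffTBLC, TBLC_Ctrl with TBLC_PlaB-, and, in diffTBLC, siVirma with siNC1 and siIgf2bp3 with siNC2. Steady-state diffTBLC libraries were labelled siNC, siMettl3 or siVirma, and diffTBLC extracts were immunoprecipitated for Igf2bp3 or Ythdf2 and sequenced beside their inputs. Mettl3 and Virma belong to the complex that writes N6-methyladenosine (m6A) on RNA, and Igf2bp3 and Ythdf2 are proteins that bind m6A-marked RNA. Each group had n = 2 libraries. No label says that these were separate cultures, so the p-values measure the spread between these libraries only, which may be technical. For slopes over the hours of actinomycin D, that spread also includes departures of the hours from a straight line.

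The 86 libraries with counts held 2483808 to 29471283 counts each. Levels are in CPM, the counts of a gene over a library's scaled total, and tables were scaled separately, so a level is compared only within its table. A difference is a log2 change with its standard error from an edgeR fit, and a gene is said to have risen or fallen where the Benjamini-Hochberg adjusted p over all genes tested was under 0.05. These are bulk measurements, in which fewer cells of a type and less RNA per cell cannot be told apart. The targeted genes were checked first. Steady-state Virma was 87.1 and 81.0 CPM in siVirma against 122 and 115 in siNC (adjusted p = 1.9e-06), and Mettl3 was 26.4 and 27.5 in the libraries labelled siMettl3 against 31.2 and 29.7 in siNC (adjusted p = 0.77). In the courses Virma was lower in siVirma at 0 h (-0.27) and over 1 to 3 h (-1.04). Igf2bp3 was 28.7 and 25.3 CPM at 0 h in the libraries labelled siIgf2bp3 against 19.9 and 16.7 in siNC2, against the label, and was lower over 1 to 3 h (-0.58, adjusted p = 1.5e-13). The siNC1 and siNC2 libraries also did not move steadily over their hours, at 0 h or later, as described with the members. Mislabelled or exchanged libraries were not tested for. Every difference at 0 h or over 1 to 3 h, change from 0 h and slope of the siVirma and siIgf2bp3 courses depends on these labels.

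The promoters of 4 members on which the results turn are shown: 2 SF3b genes that were lower and 2 Sm ring genes that were higher in unsorted diffTBLC than in TBLC. Each is the 250 bases before the annotated start, read 5′ to 3′ on the gene's strand from RefSeq (GRCm38.p6, an older build than that of the counts). Sf3b1 lies at chr1:55027479-55027728 on the minus strand, Sf3b3 at chr8:110846804-110847053 on the minus strand, Snrpd2 at chr7:19149588-19149837 on the plus strand and Snrpg at chr6:86371290-86371539 on the plus strand. Capitals mark GC boxes (GGGCGG), ETS cores (CCGGAAG), the NRF1 motif, the CRE (TGACGTCA) and the TATA box (TATAAA), read on either strand.
Sf3b1: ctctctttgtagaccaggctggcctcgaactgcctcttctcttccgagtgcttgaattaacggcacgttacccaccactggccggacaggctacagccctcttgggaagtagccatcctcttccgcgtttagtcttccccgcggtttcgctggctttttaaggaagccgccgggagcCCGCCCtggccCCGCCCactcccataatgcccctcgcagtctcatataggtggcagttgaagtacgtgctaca
Sf3b3: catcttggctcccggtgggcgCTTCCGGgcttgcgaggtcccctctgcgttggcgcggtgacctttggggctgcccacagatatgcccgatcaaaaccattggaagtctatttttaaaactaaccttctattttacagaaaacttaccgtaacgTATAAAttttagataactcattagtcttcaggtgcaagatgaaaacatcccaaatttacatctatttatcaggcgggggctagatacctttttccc
Snrpd2: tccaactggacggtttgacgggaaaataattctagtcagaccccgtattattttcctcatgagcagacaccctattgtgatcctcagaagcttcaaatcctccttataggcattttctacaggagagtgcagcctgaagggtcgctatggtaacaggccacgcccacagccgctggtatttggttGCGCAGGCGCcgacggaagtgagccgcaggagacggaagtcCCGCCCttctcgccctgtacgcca
Snrpg: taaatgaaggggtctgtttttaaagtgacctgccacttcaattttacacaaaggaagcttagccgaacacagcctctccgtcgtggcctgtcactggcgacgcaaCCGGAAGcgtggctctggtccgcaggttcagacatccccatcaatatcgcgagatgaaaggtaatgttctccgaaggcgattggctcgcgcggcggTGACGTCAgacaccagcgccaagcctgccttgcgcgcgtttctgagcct

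The promoter table held 33 of the 41 members (not U2af2, Snrpd1, Lsm4, Sf3b5, Snrpb, Eftud2, Phf5a or Sf3b4), and motifs were searched on both strands of the 250 bases before the start. An ETS core was present in 11 of the 33 (33.3%) against 7.05% of all 27025 promoter windows of that length. The NRF1 motif was in 7 (21.2% against 3.86%), the CRE in 3 (9.09% against 1.62%) and the GC box in 18 (54.5% against 32.9%). A TATA box was in 2 members (6.06% against 13%), CCAAT in 13 (39.4% against 34.5%), and the YY1 motif AAGATGGCG in 0 (0.607% of all). Median GC content was 56.8% in the members and 52% in all promoters. These matches are descriptions of letters and not of bound sites.

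**Figure D1:**
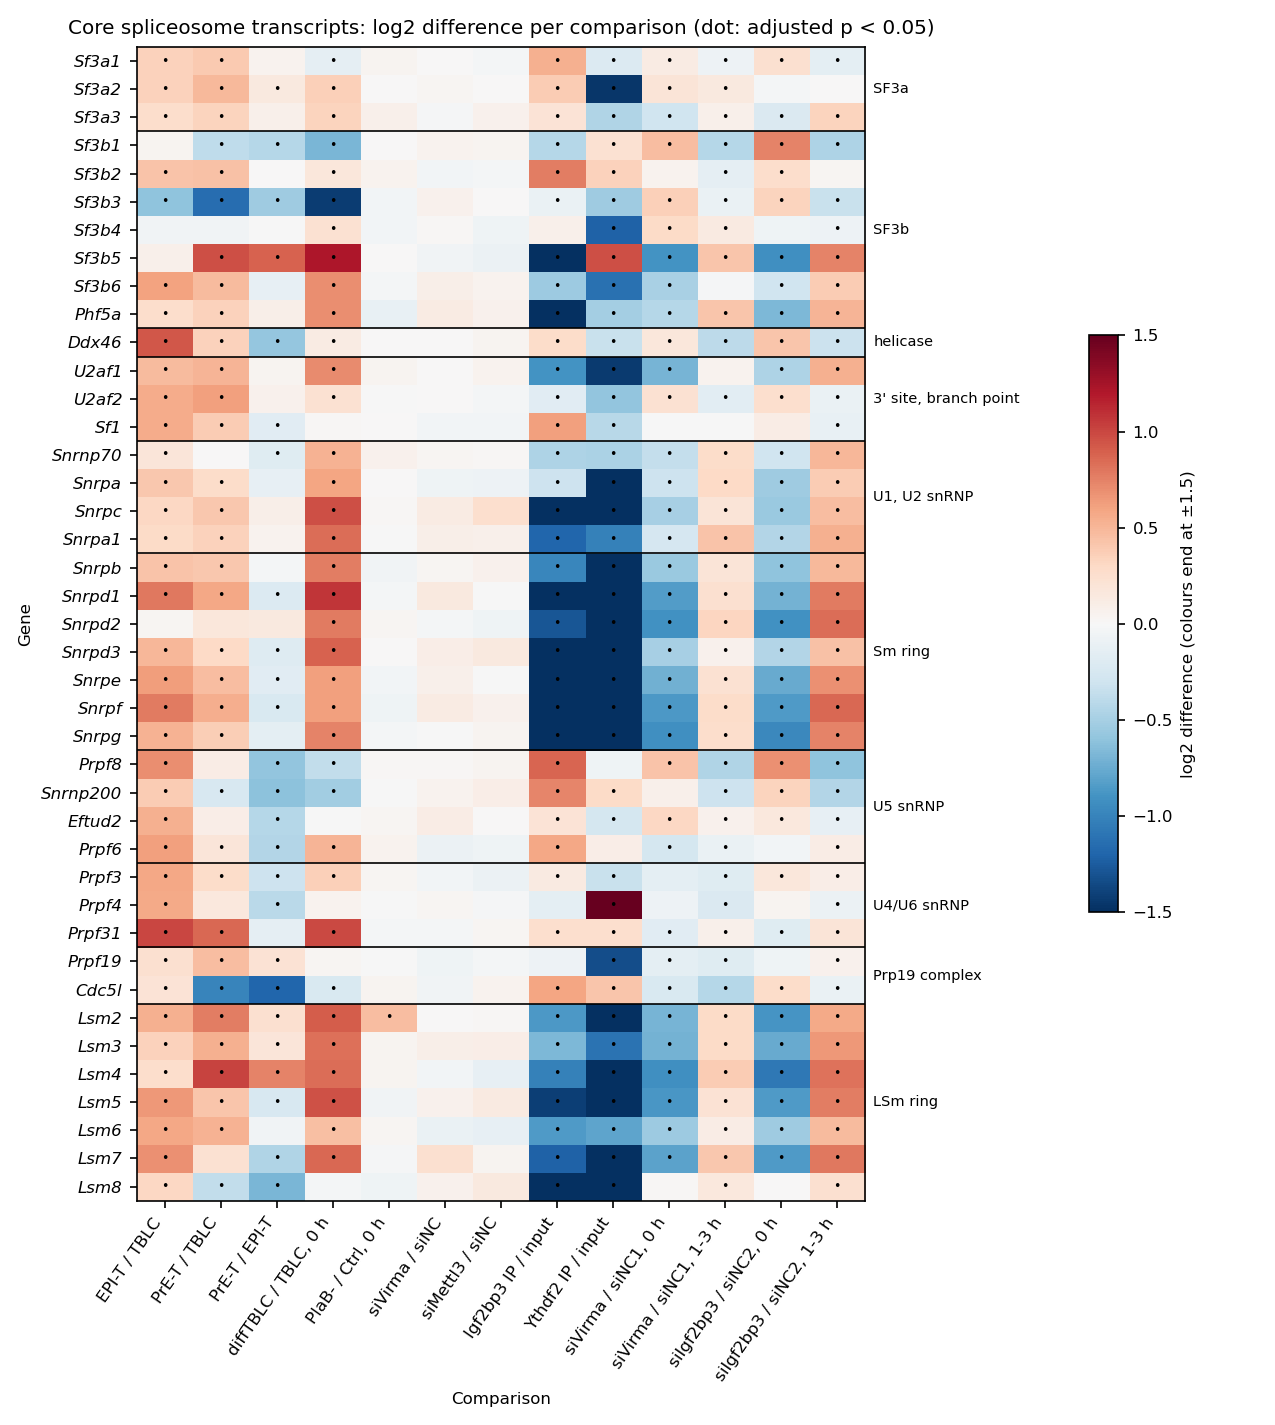
Log2 change of each of the 41 members (vertical axis, ordered by complex) in 13 comparisons (horizontal axis), with colours ending at -1.5 and 1.5 and a dot where the adjusted p was under 0.05. The 14 Sm and LSm ring members are blue or red together in the immunoprecipitations and in the siVirma and siIgf2bp3 courses, where 13 or 14 of 14 were lower or higher.

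Core spliceosome transcripts were higher in EPI-T than in undifferentiated TBLC. Of the 41 members, 36 rose and 1 fell, where 64.9% of all genes tested changed; 30.1% of all genes rose and 34.8% fell. The median member differed by 0.43, and the median of all genes by -0.07. When libraries were scaled by their totals alone, the median of all genes moved to -0.281, and 26 members rose and 3 fell. That scaling also took the share of all changed genes that were higher from 46.5% to 33.5%.

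Sf3b3, the large scaffold protein of SF3b, was the member that fell: it measured 531 and 533 CPM in EPI-T and 802 and 815 in TBLC (-0.60 ± 0.05). Prpf31, which bridges the U4/U6 particle to the rest of the tri-snRNP, was 181 and 198 in EPI-T against 100 and 88.6 in TBLC (1.01 ± 0.07). Ddx46, the helicase that acts at the branch site, was 451 and 486 against 245 and 247 (0.93 ± 0.05). The groups did not overlap for any of these 3 genes, as was required for a gene to be named. Snrpd1 of the Sm ring rose by 0.79 and its ring partner Snrpf by 0.77, and 13 of the 14 ring genes rose while 0 fell (median 0.53; 10 and 0 by library totals). All 4 U5 genes rose (median 0.57). Sf3b1 itself did not pass, at 575 and 586 CPM against 552 and 577 (0.04 ± 0.05, adjusted p = 0.50), but was lower by library totals (-0.173, adjusted p = 0.00464). Phf5a was 117 and 112 against 98.3 and 93.2 (0.26 ± 0.07, adjusted p = 0.0022), but did not pass by library totals (adjusted p = 0.539).

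PrE-T differed from TBLC in the same table. Of the members 29 rose and 5 fell (67.3% of all genes changed, 33.5% higher and 33.8% lower), with a median of 0.37; by library totals 14 rose and 10 fell, the median member was at 0.05 and the median of all genes at -0.353, and the share of changed genes that were higher went from 49.8% to 30.4%. The members that fell most were Sf3b3, at 357 and 375 CPM in PrE-T against 802 and 815 (-1.14 ± 0.05), and Cdc5l, a core protein of the Prp19 complex, at 209 and 213 against 425 and 409 (-0.99). Lsm8, the ring member that sets the nuclear LSm ring apart from the cytoplasmic one, fell by 0.37 on the log2 scale. Sf3b1 fell too, to 428 and 437 CPM from 552 and 577 (-0.38 ± 0.05, adjusted p = 2.8e-06). Phf5a, its partner in the pladienolide pocket, rose to 126 and 118 from 98.3 and 93.2 (0.35 ± 0.07, adjusted p = 1.9e-04). By library totals Phf5a did not pass (adjusted p = 0.775). The other named rises were Lsm4 (1.02), the small SF3b protein Sf3b5 (0.97 ± 0.10), Prpf31 (0.87) and Lsm2 (0.77). All 3 SF3a genes rose (1 by library totals). The U5 genes split 1 higher and 1 lower (median 0.106), and by library totals 0 higher and 4 lower (median -0.217).

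Between the sorted populations, PrE-T had more members lower than higher. Against EPI-T 19 members fell and 6 rose (68.6% of all genes changed, 35.8% higher and 32.8% lower), with a median of -0.14 against 0.03 for all genes. Cdc5l showed the largest fall: EPI-T libraries held 484 and 474 CPM and PrE-T libraries 209 and 213 (-1.19 ± 0.05, adjusted p = 1.6e-12). All 4 U5 genes were lower (median -0.51): Prpf8, which holds the catalytic core, was 557 and 571 against 856 and 838 CPM (-0.59 ± 0.05), and the helicase Snrnp200 was 432 and 453 against 679 and 679 (-0.62 ± 0.05). Lsm8 was lower as well (-0.69 ± 0.09). Sf3b1 was 428 and 437 CPM against 575 and 586 (-0.42 ± 0.05, adjusted p = 7.8e-07), and Phf5a 126 and 118 against 117 and 112 (0.08 ± 0.07, adjusted p = 0.27).

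The rises in PrE-T against EPI-T were led by transcripts of 2 small proteins. Levels of Sf3b5 were 61.8 and 68.3 CPM in the PrE-T libraries, 32.2 and 38.3 for EPI-T and 34.7 and 31.9 for TBLC, so only PrE-T was high (0.89 ± 0.10 against EPI-T). Lsm4 was 135 and 108 in PrE-T, 65.9 and 79.0 in EPI-T and 65.1 and 55.1 in TBLC (0.75 ± 0.11). Lsm2 (0.24 ± 0.07) and the ubiquitin ligase Prpf19 (0.22 ± 0.05) rose by less, and neither passed by library totals (adjusted p = 0.137 and 0.084). Lsm2 also missed the threshold without PrE-T replicate 1 (adjusted p = 0.123).

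In the order of levels over the 3 states, Sf3b3 went from TBLC through EPI-T to PrE-T, with no overlap between neighbours. Sf3b1 was lowest in PrE-T, and its EPI-T and TBLC libraries did not differ beyond the threshold. Prpf8 was highest in EPI-T, and its PrE-T and TBLC libraries did not overlap but lay close, at 557 to 571 and 521 to 527 CPM.

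Other cell types and cell cycle genes moved with these groups. The 8 primitive endoderm markers summed to 14275 to 14295 CPM in PrE-T, 185 in both EPI-T libraries and 1358 to 1399 in TBLC. The 9 fibroblast and feeder markers summed to 1008 to 1044 CPM in TBLC, 170 to 171 in PrE-T and 42.4 to 45.9 in EPI-T, where the fibroblast marker Lum had 0 counts. The 12 replication genes summed to 4559 to 4574 CPM in EPI-T, 2429 to 2506 in PrE-T and 1657 to 1699 in TBLC. Their part in the member differences was not tested.

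Splicing genes outside the core moved in the same comparisons. Of 127 tested genes of 9 splicing lists, 86 rose and 10 fell in EPI-T against TBLC (30.1% and 34.8% of all genes). In PrE-T against TBLC 73 rose and 22 fell (33.5% and 33.8% of all genes). By library totals the latter turned to 36 and 54 (median 0.245 and -0.078). In PrE-T against EPI-T 27 rose and 62 fell (35.8% and 32.8% of all genes). The falls included 11 of 19 U1 and U2 auxiliary genes, among them U2surp (-0.77 ± 0.05). They also included 10 of 19 genes of SR proteins and their kinases, among them Srsf10 (-0.93 ± 0.06). Srsf9, also an SR protein, went the other way (0.87 ± 0.07).

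**Figure D2:**
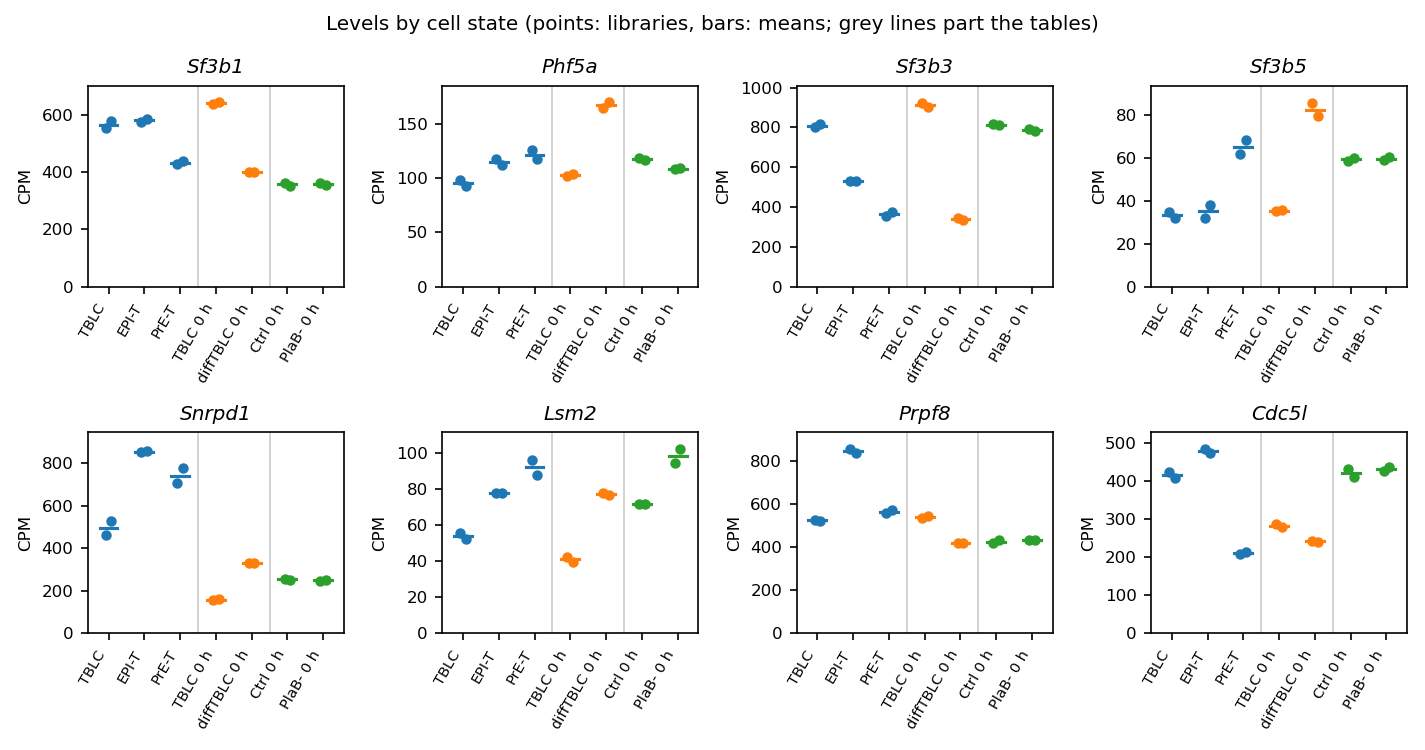
Levels in CPM (vertical axis, each panel with its own scale) of 8 members in single libraries (points), with the group mean as a bar, in the sorted cells with TBLC, in TBLC and diffTBLC at 0 h, and in TBLC_Ctrl and TBLC_PlaB- at 0 h. Sf3b3 is lowest in PrE-T and diffTBLC, and Sf3b5 is highest there. The 3 tables were scaled separately.

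Unsorted cells after 3 days in SLM were compared with TBLC before any actinomycin D. In diffTBLC 30 members rose and 6 fell (82.5% of all genes changed, 42.8% higher and 39.7% lower), with a median of 0.52 against 0.02 for all genes. By library totals 26 rose and 12 fell, the member median was 0.308 and that of all genes -0.185, and the share of changed genes that were higher went from 51.9% to 40.6%. Transcripts of the 2 proteins of the pladienolide pocket went in opposite directions. Sf3b1 was 399 and 401 CPM in diffTBLC and 637 and 646 in TBLC (-0.68 ± 0.02), and Phf5a 165 and 171 in diffTBLC and 102 and 104 in TBLC (0.70 ± 0.03).

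SF3b members lay at both ends of the range: 5 of the 7 rose and 2 fell (3 and 2 by library totals). Sf3b3 was 345 and 337 CPM in diffTBLC against 922 and 903 in TBLC (-1.42 ± 0.02), the largest fall among members, and Sf3b5 was 85.7 and 79.5 against 35.3 and 35.9 (1.22 ± 0.05), the largest rise. None of these groups overlapped, as was required for a gene to be named. Sf3b3 overlaps Cog4 and other annotated genes, and because the strand use of the counting is not stated, reads of such overlapping genes cannot be told apart.

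Among the rings 13 of 14 rose and 0 fell (median 0.81), while the 27 other members split 17 higher and 6 lower (median 0.225); by library totals the rings had 13 higher and 1 lower and the others 13 and 11 (median 0.015). Snrpd1 was 330 and 331 CPM in diffTBLC against 156 and 159 in TBLC (1.07). The U1 protein Snrpc, at 140 and 141 CPM against 68.9 and 74.6 (0.97), was among the 4 U1- and U2-specific genes that all rose (median 0.72). Prpf31 also rose (0.99), while the U5 transcripts Snrnp200 (-0.52) and Prpf8 (-0.37) fell. The wider splicing lists split 69 higher and 41 lower of 127 (42.8% and 39.7% of all genes), or 53 and 61 by library totals. Of 13 tested snRNP assembly genes 10 were higher. Primitive endoderm markers summed to 3154 to 3160 CPM in diffTBLC and 322 to 327 in TBLC, fibroblast and feeder markers to 168 to 173 and 343 to 353, and replication genes to 3679 to 3725 and 2528 to 2553. The part of these in the member differences was not tested.

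The shorter move to SLM left the members close to their controls at 0 h. In TBLC_PlaB- against TBLC_Ctrl 1 member rose and 0 fell (1.25% of all genes changed, 0.78% higher and 0.475% lower; 7 members had an unadjusted p under 0.05, and DESeq2 also called 1). That member was Lsm2, at 94.5 and 102 CPM in TBLC_PlaB- and 71.4 and 71.5 in TBLC_Ctrl (0.46 ± 0.04, adjusted p = 1.1e-15). Sf3b1 was 362 and 356 against 362 and 352 CPM (0.01 ± 0.03, adjusted p = 0.96), and Phf5a 109 and 109 against 119 and 117 (-0.11 ± 0.04, adjusted p = 0.10), with groups that did not overlap. The count was 3 without TBLC_Ctrl_0h replicate 1 and 2 without replicate 2. Columns headed TBLC_S in that table were read as TBLC_PlaB-, the only arm without columns of its own name.

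Steady-state libraries showed no member past the threshold after either siRNA. In siVirma against siNC 0 members rose and 0 fell (7.11% of all genes changed, 3.48% higher and 3.63% lower; 3 members had an unadjusted p under 0.05 and DESeq2 called 0). In the libraries labelled siMettl3 0 rose and 0 fell as well (0.865% of all genes, 0.412% higher and 0.453% lower; 3 unadjusted, 0 by DESeq2). Sf3b1 was 503 and 519 CPM in siVirma, 509 and 507 in those labelled siMettl3 and 494 and 494 in siNC (0.05 ± 0.04, adjusted p = 0.56, and 0.04 ± 0.04, adjusted p = 0.81). Phf5a was 134 and 127, 127 and 123, and 121 and 119 CPM (adjusted p = 0.40 and 0.86). Of the 127 wider splicing genes 7 rose and 1 fell in siVirma, and 0 passed in the libraries labelled siMettl3. These libraries held 3968442 to 4750020 counts each, and whether depth limits the member counts was not tested.

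In the Igf2bp3 immunoprecipitation some complexes were depleted or enriched as a whole, while SF3b members went both ways. Transcripts of 25 members were depleted in the IP and 13 enriched against input (69.7% of all genes changed, 35% higher and 34.8% lower), with a median of -0.46; by library totals 27 were depleted and 9 enriched, and the share of changed genes that were enriched went from 50.2% to 37%. All 14 Sm and LSm ring transcripts were depleted (median -1.35, or -1.547 by library totals), and so were the 4 U1- and U2-specific ones (median -0.82). All 4 U5 transcripts (median 0.66) and all 3 SF3a transcripts were enriched (3 and 2 by library totals). No libraries of a non-specific antibody were used here, so the comparison is with input only.

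Among single members, Snrpf of the Sm ring was 33.1 and 32.6 CPM in the IP and 190 and 166 in the input (-2.44 ± 0.06). Snrpe fell from 62.5 and 55.8 to 11.8 and 10.4 CPM (-2.41), Snrpd1 from 136 and 140 to 32.6 and 35.7 (-2.01), and Lsm8 from 14.7 and 17.7 to 4.49 and 4.03 (-1.92 ± 0.19). IP and input were far apart for each of these 4, which were named for the size of their falls. The enriched members were led by Prpf8, at 1522 and 1480 CPM in the IP and 821 and 819 in the input (0.87 ± 0.02). Sf3b2, which contacts the pre-mRNA beside the branch point, was 1045 and 1075 against 630 and 614 (0.77), and Snrnp200 (0.73) and the branch point binding protein Sf1 (0.61) followed. Sf3b1 was depleted slightly, at 357 and 360 against 478 and 489 CPM (-0.43 ± 0.03), and Phf5a strongly, at 17.0 and 15.3 against 59.3 and 57.8 (-1.86 ± 0.10).

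Ythdf2 immunoprecipitates held few ring transcripts as well. Of the members 32 were depleted and 7 enriched (79% of all genes changed, 40.2% higher and 38.8% lower), with a median of -1.02. All 14 ring transcripts were depleted (median -1.91), against 18 depleted and 7 enriched of the 27 others (median -0.42). Snrpe went from 121 and 146 CPM in the input to 19.1 and 19.1 in the IP (-2.81 ± 0.10), Snrpd2 from 181 and 182 to 34.9 and 35.5 (-2.37), Snrpg from 56.0 and 68.8 to 12.1 and 13.1 (-2.31), and Lsm2 from 42.6 and 40.6 to 7.82 and 9.22 (-2.28).

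Some members differed in direction between the 2 antibodies, although the inputs differ and the difference was not tested. Prpf4, a U4/U6 protein, was enriched with Ythdf2, at 109 and 112 CPM against 32.9 and 44.7 (1.49 ± 0.10), and was 52.3 and 49.5 against 57.4 and 55.4 with Igf2bp3. Sf3b5 was enriched with Ythdf2, at 102 and 86.4 against 47.0 and 49.2 (0.97 ± 0.10), and was 14.2 and 11.6 against 42.1 and 43.8 with Igf2bp3. Sf3b1 was 868 and 914 against 758 and 758 CPM with Ythdf2 (0.23 ± 0.05, adjusted p = 8.3e-06), and Phf5a 40.2 and 40.8 against 57.2 and 58.5 (-0.51 ± 0.11, adjusted p = 1.9e-05). Cdc5l (0.41) and Sf3b2 (0.34) were enriched with Ythdf2 too.

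The wider splicing lists were depleted in the majority of cases with both antibodies. With Igf2bp3 78 of 127 were depleted and 40 enriched (34.8% and 35% of all genes). With Ythdf2 80 were depleted and 31 enriched (38.8% and 40.2% of all genes). Cdc40, a step 2 factor, was enriched with Igf2bp3 (2.24 ± 0.06), and Magoh of the exon junction complex was depleted (-2.42 ± 0.07). The mitochondrially encoded genes summed to 1467 to 1521 CPM in the Ythdf2 IP and 10580 to 10696 in its input. Primitive endoderm markers summed to 9644 to 9650 CPM in the Igf2bp3 IP and 5204 to 5299 in its input. The part of either in the member values was not tested.

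**Figure D3:**
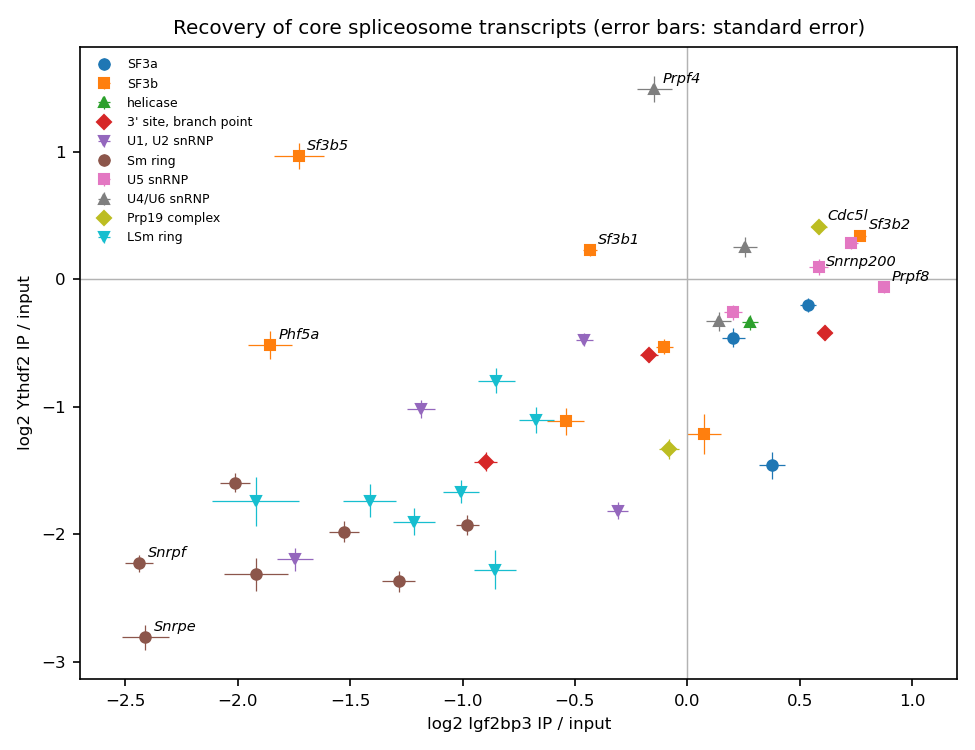
Log2 ratio of IP to input for Igf2bp3 (horizontal axis) and Ythdf2 (vertical axis) for the 41 members (points, coloured by complex), with bars of 1 standard error. The 14 ring members lie below 0 on both axes, and Prpf4 and Sf3b5 lie above 0 on the vertical axis only.

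Under actinomycin D a transcript that is lost more slowly than the average rises in CPM. A slope here is the log2 change per hour set against the average transcript, because the labels name no added reference RNA. In TBLC 36 members had a rising slope and 2 a falling one (65.2% of all genes had a slope past the threshold, 37.2% rising and 28.1% falling), and the median member rose by 0.18 log2 per hour. In diffTBLC 32 rose and 2 fell (59.4% of all genes, 30.8% rising and 28.6% falling; median 0.17). By library totals the counts were 22 and 4 in TBLC and 22 and 8 in diffTBLC, and the median slope of all genes was -0.08 and -0.113. In TBLC_Ctrl 31 rose and 4 fell (61.9%, 29.1% rising and 32.7% falling; median 0.11; 21 and 11 by totals), and in TBLC_PlaB- 29 rose and 6 fell (65.2%, 31% rising and 34.2% falling; median 0.11; 18 and 13 by totals).

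The 4 steepest rises in each of these arms were ring transcripts. In diffTBLC Snrpd2 went from 212 and 218 CPM at 0 h to 418 and 441 at 3 h (0.34 per hour), and Snrpg from 236 and 232 to 449 and 434 (0.32). In TBLC Lsm5 went from 53.9 and 54.7 to 115 and 110 (0.36), and Snrpg from 138 and 142 to 277 and 287 (0.34). The summed ring level was 1327 to 1335 CPM in TBLC at 0 h and 2238 to 2280 at 3 h. In diffTBLC it was 2274 to 2299 and 3916 to 3981. The ring sum thus rose relative to other transcripts in both arms. The mean of Lsm8, a ring gene, was lower at 3 h than at 0 h in both.

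Prpf4 went the other way in every arm. It was 80.8 and 81.4 CPM at 0 h and 50.5 and 50.7 at 3 h in TBLC (-0.23 per hour), and 84.5 and 84.0 and then 40.4 and 40.6 in diffTBLC (-0.34). In TBLC_Ctrl it went from 53.6 and 51.5 to 30.8 and 29.6 (-0.27), and in TBLC_PlaB- from 54.0 and 50.7 to 28.2 and 32.0 (-0.28). Its group mean at 3 h was below that at 0 h in all 8 arms of the 4 courses, as was that of Lsm8; this held for Prpf3, another U4/U6 protein, in 7 arms and for Cdc5l in 6. In TBLC_Ctrl Lsm8 (-0.22), Cdc5l (-0.12) and Prpf3 (-0.04) also had falling slopes; that of Prpf3 lost its call without TBLC_Ctrl_0h replicate 1 (-0.029, adjusted p = 0.197) and without 4 other libraries in turn. In diffTBLC the falling slope of Cdc5l (-0.07) missed the threshold without diffTBLC_3h replicate 1 (-0.04, adjusted p = 0.0888).

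The slope of Sf3b1 differed between TBLC and diffTBLC. In TBLC it rose from 637 and 646 CPM to 841 and 850 (0.13 per hour; 0.0155 by library totals, adjusted p = 0.725), and in diffTBLC it did not pass (-0.03, adjusted p = 0.47; -0.148 by library totals). The difference was -0.16 ± 0.04 per hour (adjusted p = 0.024). Of all members 5 had a lower and 0 a higher slope in diffTBLC (8.21% of all genes, 2.56% higher and 5.66% lower; 1 higher and 1 lower by RLE scaling, 0 and 1 by library totals), among them Sf3b3 (-0.155 ± 0.02, adjusted p = 1.6e-04), Prpf4 (-0.119, adjusted p = 0.048) and U2af2, which binds the polypyrimidine tract (-0.072, adjusted p = 0.032). Without the 0 h libraries 20 members had a higher and 10 a lower slope, as had 2144 and 2584 of all genes. Phf5a rose in TBLC (0.17) and in diffTBLC, from 165 and 171 to 271 and 256 CPM (0.23), and its difference did not pass (0.06, adjusted p = 0.40). The 5 became 1 without either TBLC_0h library, 8 or 9 without a diffTBLC_0h library and 2 without a diffTBLC_3h library, and Prpf4 missed the threshold without any of 10 single libraries. The difference of Sf3b1 moved with the 3 h libraries: it was -0.0664 (adjusted p = 0.411) without diffTBLC_3h replicate 1 and -0.0736 (adjusted p = 0.382) without replicate 2. That of U2af2 was -0.0126 (adjusted p = 0.805) without diffTBLC_3h replicate 1 and 0.0008 (adjusted p = 0.991) without replicate 2.

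**Figure D4:**
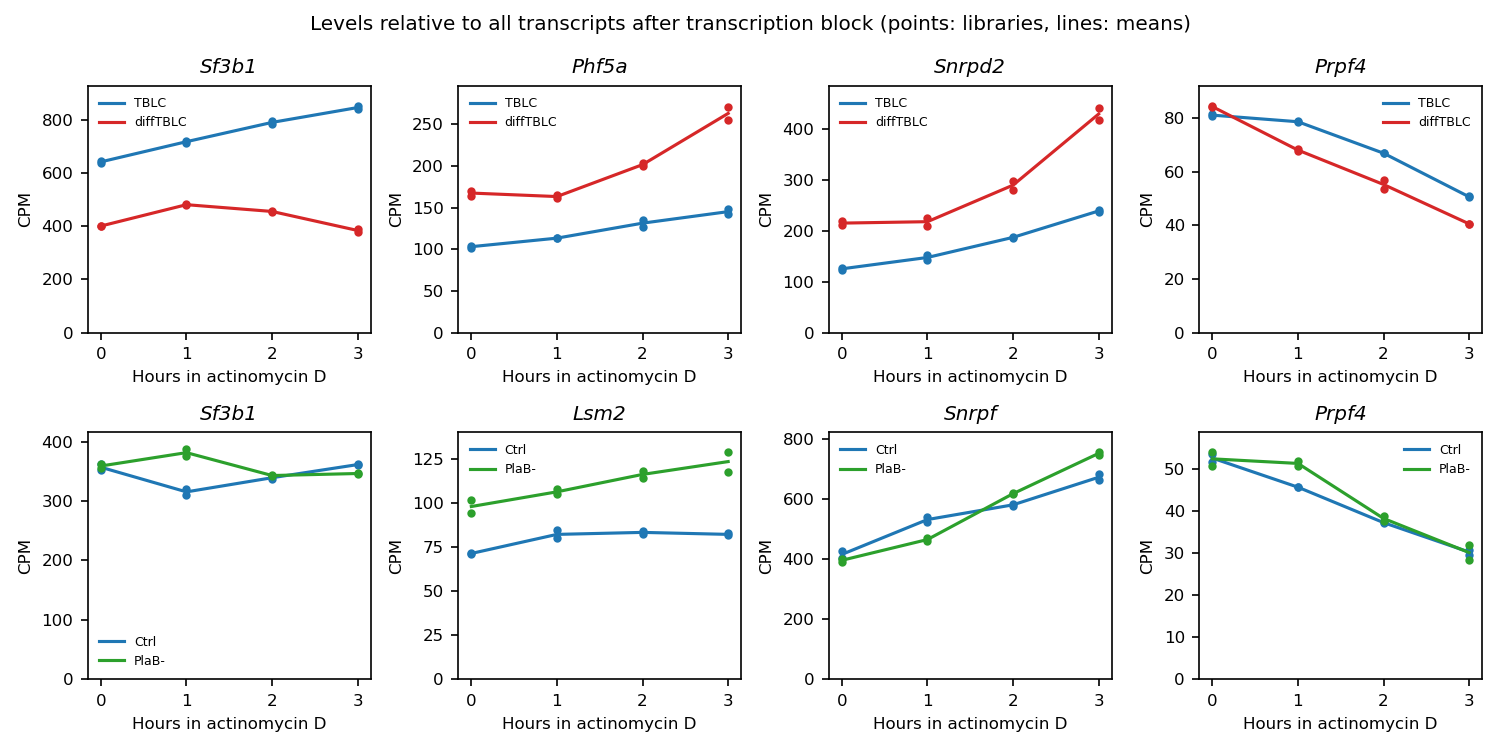
Levels in CPM (vertical axis) over hours of actinomycin D (horizontal axis) of 4 members in TBLC and diffTBLC (top) and of 4 members in TBLC_Ctrl and TBLC_PlaB- (bottom), with points for single libraries and lines through the group means. Snrpd2 and Snrpf rise, Prpf4 falls in all 4 arms, and Lsm2 is higher in TBLC_PlaB- at each hour.

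With 8 h in SLM the arms differed by hour. Averaged over 1 to 3 h 4 members were higher and 9 lower in TBLC_PlaB- than in TBLC_Ctrl (20.7% of all genes, 12.8% higher and 7.84% lower; 6 members by DESeq2). The 13 became 8 without TBLC_Ctrl_1h replicate 2, 7 without TBLC_PlaB-_1h replicate 2 and 6 without TBLC_PlaB-_3h replicate 2. Lsm2 was higher at each hour (0.48 ± 0.02), from 105 and 108 CPM against 80.0 and 84.6 at 1 h to 118 and 129 against 82.8 and 81.8 at 3 h. The hours differed among themselves: 8 members were higher and 18 lower at 1 h (32.1% of all genes), 2 and 0 at 2 h (2.99%), and 8 and 6 at 3 h (11.2%), and of the rings 9 were lower at 1 h and 8 higher at 3 h. Sf3b1 passed over 1 to 3 h (0.08, adjusted p = 3.2e-05) through 1 h alone, where it was 375 and 388 against 310 and 321 CPM; at 3 h it was 345 and 348 against 363 and 360 (-0.0606, adjusted p = 0.15). Phf5a did not pass over 1 to 3 h (0.01, adjusted p = 0.87) and was lower at 1 h (-0.109, adjusted p = 0.00665).

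When the change of the arm difference from 0 h was itself tested, 0 members were higher and 2 lower (4.31% of all genes, 2.77% higher and 1.54% lower). These were the U1 protein Snrnp70 (-0.14, adjusted p = 0.0029) and Sf3a3 (-0.11, adjusted p = 0.023), with adjusted p of 0.148 and 0.0806 by DESeq2. Snrnp70 lost its call without TBLC_Ctrl_0h replicate 2 (adjusted p = 0.213) or TBLC_PlaB-_0h replicate 1 (0.153), and Sf3a3 without TBLC_Ctrl_0h replicate 2 (0.385), TBLC_Ctrl_1h replicate 2 (0.068) or either TBLC_PlaB-_0h library (0.0834 and 0.137). A slope difference passed for 1 member (0.411% of all genes, 0.319% higher and 0.0922% lower): Snrpf rose from 401 and 391 to 748 and 757 CPM in TBLC_PlaB- and from 428 and 403 to 683 and 663 in TBLC_Ctrl, a difference of 0.098 ± 0.02 per hour (adjusted p = 0.047), and it missed the threshold without any of 10 single libraries. Without the 0 h libraries 22 members had a higher and 7 a lower slope in TBLC_PlaB-, as had 1891 and 1237 of all genes.

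In the siRNA courses the control arms did not move steadily with time. In siNC1 the summed ring level was 4050 to 4104 CPM at 0 h, 2025 to 2042 at 1 h, 3060 to 3245 at 2 h and 2883 to 2923 at 3 h, and in siNC2 it was 3580 to 3598, 1670 to 1751, 2546 to 2626 and 2157 to 2203. Both controls were highest at 0 h and lowest at 1 h. In siVirma the sums were 2405 to 2445, 2565 to 2691, 3326 to 3373 and 3390 to 3536, and in the libraries labelled siIgf2bp3 2132 to 2138, 2384 to 2474, 2962 to 3164 and 5152 to 5423, rising at each hour. The mitochondrially encoded genes differed between hours too. In siNC1 they summed to 14502 to 15721 CPM at 0 h and 20288 to 20433 at 1 h. At 2 and 3 h the siNC1 sums were 13469 to 14750 and 20037 to 20081. In siNC2 the sums were 15606 to 16462, 22837 to 23458, 16346 to 16367 and 21801 to 22221. In both controls the 2 h sums were near those of 0 h, and the 3 h sums near those of 1 h. In the libraries labelled siIgf2bp3 these genes went from 23165 to 23379 at 0 h to 8611 to 8748 at 3 h. Their part in the member values was not tested.

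At 0 h the members were lower in siVirma than in siNC1 in the majority of cases. Of the 41, 26 fell and 9 rose (60.3% of all genes changed, 33.1% higher and 27.2% lower), with a median of -0.30 against 0.05 for all genes; by library totals 20 fell and 14 rose, and the median of all genes was 0.244. Of the rings 13 fell and 0 rose (median -0.76, or -0.568 with 13 lower and 1 higher by library totals), and the 27 others split 13 lower and 9 higher (median -0.144; 7 and 13, 0.05, by library totals). Snrpd2 was 281 and 268 CPM in siVirma against 513 and 520 in siNC1 (-0.91), and Lsm4 was 111 and 105 against 197 and 211 (-0.92). Snrpg (-0.92) and Sf3b5 (-0.90) fell alike, and the groups of these members did not overlap, as was required for a gene to be named. Sf3b1 was higher, at 324 and 334 CPM against 243 and 233 (0.47 ± 0.04), as were Prpf8 (0.42), Sf3b3 (0.36) and the U5 GTPase Eftud2 (0.31), while Phf5a was lower, at 211 and 218 against 291 and 283 (-0.42 ± 0.04). In the steady-state siVirma libraries, against siNC, 0 members had passed and the median member was at 0.02 (7.11% of all genes changed). Why those libraries and the 0 h libraries of this course differ was not tested.

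Over 1 to 3 h the same arms stood the other way round. In siVirma 25 members were higher and 13 lower (71.5% of all genes, 35.5% higher and 36% lower), and 14 of 14 ring genes were higher (median 0.25). By hour 14, 5 and 12 of the 14 ring genes were higher and 0 lower (median 0.398, 0.098 and 0.275), and of all members 26, 11 and 18 were higher and 7, 10 and 12 lower at 1, 2 and 3 h. Snrpd2 was 324 and 302 CPM against 234 and 231 at 1 h, 413 and 419 against 372 and 380 at 2 h, and 442 and 426 against 324 and 343 at 3 h. Sf3b1 was 326 and 334 against 452 and 461 CPM at 1 h, 300.0 and 314 against 359 and 373 at 2 h, and 325 and 331 against 474 and 490 at 3 h (-0.43 ± 0.02). Prpf8 (-0.46), Cdc5l (-0.42) and Ddx46 (-0.39) were lower too, and Phf5a was higher (0.41, with overlapping groups).

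The change of the arm difference from 0 h to 1 to 3 h, tested as a contrast chosen after the values were seen, passed for 24 members upward and 12 downward (62.9% of all genes, 29.2% upward and 33.7% downward). By library totals 22 went up and 16 down, and the median of all genes was -0.229. It was -0.89 ± 0.05 for Sf3b1 and 0.84 ± 0.05 for Phf5a, -0.88 for Prpf8, -0.56 for Ddx46 and -0.45 for Sf3b3, and up to 1.32 for Sf3b5, with Lsm4 (1.29), Snrpd2 (1.23) and Lsm7 (1.21). Of the rings 13 went up and 0 down (median 1.03, or 0.851 by library totals). The contrast takes its 0 h value from 4 libraries, 2 of which are of siNC1, an arm that did not move steadily with time.

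Slopes in siVirma differed for 0 members upward and 3 downward (8.94% of all genes, 2.91% upward and 6.02% downward): Ddx46 (-0.195, adjusted p = 0.044), Sf3b3 (-0.157, adjusted p = 0.036) and U2af2 (-0.134, adjusted p = 0.037). Sf3b1 (-0.27, adjusted p = 0.056) and Phf5a (0.25, adjusted p = 0.071) did not pass. DESeq2 called 10 upward and 8 downward. The edgeR counts rested on single libraries. Without siNC1_1h replicate 1 or 2, 26 members passed, Sf3b1 among them (-0.30, adjusted p = 0.00999 and 0.00876), and without any single siVirma library or siNC1 library of 0 or 3 h, 0 passed.

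In the libraries labelled siIgf2bp3 ring transcripts were again lower than in the control, siNC2, at 0 h and higher later. At 0 h 23 members were lower and 11 higher (65.7% of all genes, 41.2% higher and 24.6% lower), with a median of -0.29 against 0.141 for all genes, and 13 ring genes were lower and 0 higher (median -0.80, or -0.719 by library totals). Sf3b1 was 372 and 363 CPM against 218 and 222 (0.74 ± 0.04), and Phf5a 172 and 166 against 267 and 272 (-0.68 ± 0.04). Lsm4 was 87.2 and 85.7 against 178 and 186 CPM (-1.07), and Snrpg (-0.97), Sf3b5 (-0.92) and Snrpd2 (-0.90) were lower as well. Prpf8 was higher, at 461 and 470 against 288 and 293 CPM (0.68), with Ddx46 (0.42) and Snrnp200 (0.34).

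Over 1 to 3 h 27 members were higher and 12 lower (70% of all genes, 32.9% higher and 37.1% lower; 24 and 15 by library totals, with all genes at -0.151), and all 14 ring genes were higher (median 0.715, or 0.581 by library totals). Sf3b1 was 363 and 370 CPM against 500 and 503 at 1 h, 347 and 349 against 358 and 371 at 2 h, and 272 and 291 against 511 and 512 at 3 h (-0.46 over the 3 hours). At 2 h neither Sf3b1 (-0.0651, adjusted p = 0.271) nor Phf5a (0.0967, adjusted p = 0.0915) passed, and 14.5% of all genes did, against 52% at 1 h and 68.3% at 3 h. Phf5a was 340 and 345 CPM against 170 and 176 at 3 h (0.51 over the 3 hours). Prpf8 (-0.60), Snrnp200 (-0.44) and Sf3b3 (-0.33) were lower. The ring counts by hour were 14, 11 and 14 higher of 14 (median 0.525, 0.249 and 1.323).

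The arm difference changed between 0 h and 1 to 3 h for 26 members upward and 12 downward (73.2% of all genes, 30.1% upward and 43.1% downward; 23 and 16 by library totals, with all genes at -0.379). The contrast was -1.20 ± 0.04 for Sf3b1 and 1.19 ± 0.04 for Phf5a, and all 14 ring genes went up (median 1.47; 13 of 14 at 1.252 by library totals), led by Lsm4 (1.88), Snrpd2 (1.75), Snrpg (1.71) and Snrpf (1.71). Prpf8 (-1.28), Snrnp200 (-0.78) and Ddx46 (-0.74) went down.

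Slopes differed for 24 members upward and 9 downward (52.4% of all genes, 26.4% upward and 26% downward). Snrpd2 rose from 241 and 245 CPM at 0 h to 719 and 772 at 3 h in the libraries labelled siIgf2bp3, and went from 457 and 451 to 239 and 234 in siNC2, a slope difference of 0.768. Lsm4 went from 87.2 and 85.7 to 278 and 268 CPM against 178 and 186 to 90.5 and 82.0 (0.820). Sf3b5 and Snrpf differed by 0.744 each and Phf5a by 0.482, while Sf3b1 (-0.419), Prpf8 (-0.469), Snrnp200 (-0.271) and Sf3b3 (-0.264) had lower slopes. These slope differences needed both the 0 h and the 3 h libraries: 0 members passed without the 0 h libraries and 0 without the 3 h libraries, and 0 of all genes in either case.

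**Figure D5:**
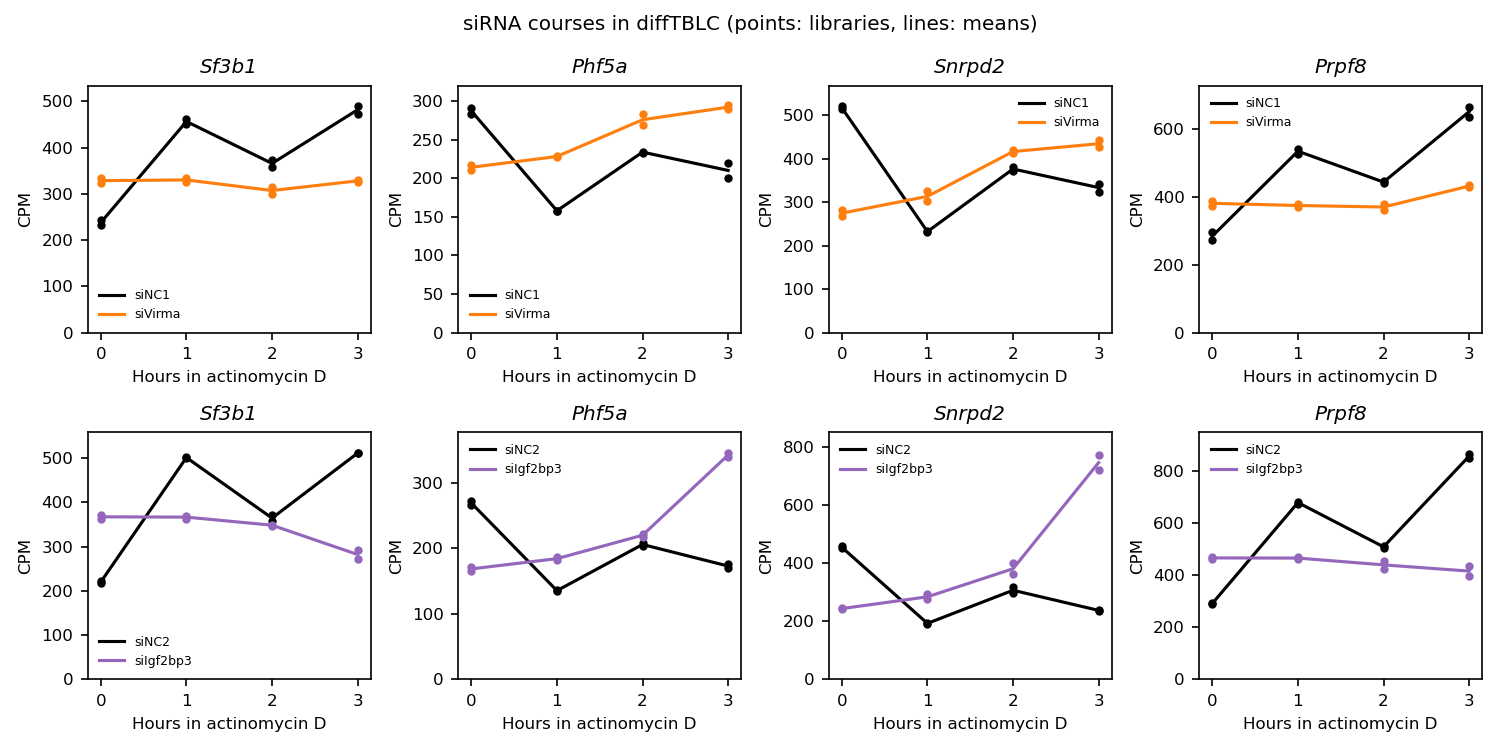
Levels in CPM (vertical axis) over hours of actinomycin D (horizontal axis) of Sf3b1, Phf5a, Snrpd2 and Prpf8 in siNC1 and siVirma (top) and siNC2 and libraries labelled siIgf2bp3 (bottom), with points for single libraries and lines through the group means. Snrpd2 is highest at 0 h and lowest at 1 h in both controls and rises at each hour in those labelled siIgf2bp3, from 241 and 245 to 719 and 772 CPM.

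Of the wider splicing genes 47 were higher and 51 lower in siVirma at 0 h (33.1% and 27.2% of all genes). Over 1 to 3 h 36 were higher and 64 lower (35.5% and 36% of all genes). In the libraries labelled siIgf2bp3 62 were higher and 42 lower at 0 h (41.2% and 24.6% of all genes). Over 1 to 3 h 59 were higher and 43 lower there (32.9% and 37.1% of all genes). Over the course of TBLC 85 of the 127 had rising and 16 falling slopes (37.2% and 28.1% of all genes). In diffTBLC 65 had rising and 28 falling slopes (30.8% and 28.6% of all genes). The steepest fall of the 127 in either arm was that of Zrsr1 of the minor spliceosome list (-0.965 per hour in TBLC and -0.928 in diffTBLC).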

How the data were processed

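Counts of 86 libraries in 9 tables were used. The authors deposited them as raw whole-number counts, listed by gene symbol. STAR 2.7.11b and Subread, build mm39, DESeq2 and, for reads, Trim Galore and FastQC 0.12.1 are named in the submitters' processing notes; how strand was used in counting is not given in the sources used here. Per the labels' protocols RNA was extracted with TRIzol, and libraries came from either of 2 stranded kits and 2 instruments, whose assignment is not given. 9 members overlap another annotated gene. All columns were used (0 left out) except that TBLC2 has no comparison group; the m6A peak lists were not used here.

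Each table was filtered with filterByExpr on its groups, scaled by TMM and fitted with all its libraries together by the quasi-likelihood test of edgeR 4.0.16 (R 4.3.3; Benjamini-Hochberg over all 12141 to 14463 genes tested). Course arms were compared at 0 h and averaged over 1 to 3 h from arm-by-time means, and slopes came from a line per arm. Standard errors were derived from the F statistic. On simulated counts the scripts were checked for recovery of known changes. None of 42 replicate pairs was identical. The genes named are Sf3b1 and Phf5a, at most 4 rises and 4 falls per comparison, the largest among changed members whose groups do not overlap (slopes: past the threshold), up to 2 genes of a splicing list, and the targeted genes. Other members are named with their complexes.

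Alternatives were scaling by RLE or by library totals, testing with DESeq2 1.42.0, no filter on low counts, the replicate number as a block, each library left out in turn and slopes without 0 h. Added after the values were seen were the change of the arm difference from 0 h, single hours and slopes without 3 h. The members and the gene lists were chosen with earlier results of these data known.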

Additional observations from a re-analysis of the deposited data

Results flagged for a closer look

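The results here are those in which a test of the difference itself separated 2 arms of an actinomycin D course. All are on the log2 scale, relative to the centre of all transcripts.

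Between diffTBLC and TBLC the slope was lower per hour in diffTBLC for Sf3b1 (-0.160), Sf3b3 (-0.155), Prpf4 (-0.119) and U2af2 (-0.072). By RLE scaling 1 member was higher and 1 lower, and by library totals 0 and 1. The differences of Sf3b1 and Prpf4 depended on single libraries, and that of U2af2 was 0.0008 without diffTBLC_3h replicate 2. When the 0 h libraries were left out, 20 members were higher and 10 lower, as were 2144 and 2584 of all genes. Between TBLC_PlaB- and TBLC_Ctrl the slope was higher for Snrpf (0.098), which did not pass by RLE scaling or library totals. Between siVirma and siNC1 it was lower for Ddx46 (-0.195), Sf3b3 (-0.157) and U2af2 (-0.134), of which 0 passed by library totals, with no filter on low counts, without the 0 h or 3 h libraries or without any single siVirma library. Between the libraries labelled siIgf2bp3 and siNC2 it was higher for Lsm4 (0.820), Snrpd2 (0.768), Sf3b5 (0.744), Snrpf (0.744) and Phf5a (0.482), and lower for Prpf8 (-0.469), Sf3b1 (-0.419), Snrnp200 (-0.271) and Sf3b3 (-0.264), of which 0 passed without the 0 h or the 3 h libraries.

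The change of the arm difference from 0 h to the mean of 1 to 3 h went opposite ways for Sf3b1 and Phf5a in both siRNA courses. This contrast was chosen after the values were seen. It was -1.201 for Sf3b1 and 1.186 for Phf5a in the libraries labelled siIgf2bp3 against siNC2, where 73.2% of all genes passed. In siVirma against siNC1 it was -0.889 and 0.837, where 62.9% of all genes passed. The split was not particular to these genes: Prpf8 went down with Sf3b1, and ring genes went up with Phf5a. The siNC1 and siNC2 arms, which enter the contrast, did not move steadily with time.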

How the results depend on the processing

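Counts of changed members stayed within 1.5 times of those given, under DESeq2, RLE scaling, library totals, no filter on low counts and each library left out, for the 3 sorted-cell comparisons, both immunoprecipitations, diffTBLC against TBLC at 0 h, the slopes within the TBLC, diffTBLC, TBLC_Ctrl and TBLC_PlaB- arms, and the siVirma and siIgf2bp3 courses at 0 h and in the change from 0 h; the exceptions elsewhere follow. The cause of each was not tested, apart from fits with fewer libraries.

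DESeq2 changed counts over all genes to 271 from 863 in siVirma against siNC and to 40 from 105 in the libraries labelled siMettl3. For TBLC_PlaB- against TBLC_Ctrl it gave 73 genes (177) at 0 h, 1538 (2918) with 6 members (13) over 1 to 3 h, 163 genes (608) with 0 members (2; 16 had an unadjusted p under 0.05 in edgeR) for the change from 0 h, and 203 slope differences (58). For siVirma slopes it gave 18 members, 10 higher and 8 lower (0 and 3), and 3062 genes (1221).

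Members with a slope difference between diffTBLC and TBLC (5) became 2 by RLE scaling, 1 by library totals, 30 without 0 h (20 higher and 10 lower, against 0 and 5) and 2 without 3 h, and genes (1188) became 4728 and 422 without those hours. For TBLC_PlaB- the 1 member became 0 by RLE scaling, library totals and without 3 h, and 29 without 0 h (22 higher, 7 lower); the 58 genes became 27 by library totals, 110 without a filter, 3128 without 0 h and 3 without 3 h. For siVirma the 3 members became 0 by library totals, with no filter and without 0 h or 3 h, and the 1221 genes became 1, 6, 0 and 0. For siIgf2bp3 the 33 members and 7110 genes became 0 and 0 without 0 h and 0 and 0 without 3 h. No filter gave 5 members (2) for the change from 0 h in TBLC_PlaB-.

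Single hours gave, for TBLC_PlaB-, 26 members at 1 h and 2 at 2 h (13 over 1 to 3 h), and 4522, 422 and 1585 genes at 1, 2 and 3 h (2918). For siVirma 2 h alone gave 21 members (38) and 6115 genes (9769), and for siIgf2bp3 19 members (39) and 1969 genes (9503).

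Directions turned for Sf3b1 in EPI-T against TBLC (-0.173 by library totals), the Sf3b1 slope in TBLC_Ctrl (-0.0586 by library totals), the U2af2 slope difference of diffTBLC (-0.0781 to 0.0008 without single libraries, the latter without diffTBLC_3h replicate 2), and in TBLC_PlaB- for Phf5a at 1 h (-0.109) and Sf3b1 at 3 h (-0.0606).

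Leaving out single libraries gave 18 to 26 members for PrE-T against EPI-T, 1 to 9 for the diffTBLC slope difference (630 to 1555 genes) and 0 to 26 for that of siVirma (0 to 5126 genes, the highest without siNC1_1h replicate 1). For TBLC_PlaB- the ranges were 1 to 3 members at 0 h (70 to 207 genes, the lowest without TBLC_Ctrl_0h replicate 2), 6 to 13 over 1 to 3 h, 0 to 4 for the change from 0 h (244 to 695 genes, the lowest without TBLC_PlaB-_0h replicate 2) and 0 to 1 slope differences (8 to 179 genes, the lowest without TBLC_Ctrl_3h replicate 2). Steady-state siVirma gave 495 to 606 genes and those labelled siMettl3 41 to 49, with 0 members throughout.

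Deviations of libraries with the same replicate number had correlations from -0.048 to 0.092, so no pairing by number was detected. With the replicate block, 3 members (5) had a slope difference between diffTBLC and TBLC, 0 (1) in TBLC_PlaB-, 406 genes (1221) in siVirma, and 6 members (2) changed from 0 h in TBLC_PlaB-.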

Other observations

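TBLC2 libraries, cells in 2MYCP with no comparison group in their table, held 5036913 and 5238475 counts. Sf3b1 measured 692 and 689 CPM there and Phf5a 81.0 and 85.8. Sf3b3 was at 1078 and 1100, Sf3b5 at 54.2 and 52.7, Snrpd2 at 118 and 116, Lsm2 at 52.0 and 52.9, Prpf4 at 79.2 and 79.5 and Cdc5l at 294 and 289 CPM. These levels come from a table scaled on its own and were not tested against any other group.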
